A study of Mus musculus with 6 samples.

Results

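Integrins, the cell surface receptors for extracellular matrix, and the laminins and nidogens of basement membranes were followed through RNA-seq libraries of mouse skeletal stem cells. Members were taken by gene symbol alone: 39 of the 26130 genes in the deposited count table, comprising 18 integrin alpha subunits, 8 integrin beta subunits, 11 laminin chains and 2 nidogens. The cells came from the Achilles tendon-to-bone interface of C57BL/6 mice and were sorted by fluorescence. There were 2 sham control libraries, 1 uninjured library and 3 libraries from partially injured interfaces, and the study text places them at day 7 after injury. In the description labels the uninjured library is called a sham, so it was set on its own in the first comparison and joined to the sham libraries, as 3 non-injured libraries, in the second. No transgene or Cre is named in the labels, and whether a library holds 1 animal or a pool is not given there, so p-values reflect only how far these samples scatter, and that scatter may be technical.

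A laminin is a cross-shaped trimer of 1 alpha, 1 beta and 1 gamma chain that cells secrete and that polymerises on their surface. Nidogens link the laminin network to the collagen IV network, and together these networks form the sheet that surrounds muscle fibres, nerves, vessels and many stromal cells. An integrin is an alpha-beta pair, and the pair decides the ligand: some bind collagen, some laminin, some the RGD motif of fibronectin and vitronectin, and one class is made mainly by leukocytes. Integrin alpha V (Itgav) is also among the surface proteins by which mouse skeletal stem cells are commonly sorted.

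Total counts ranged from 37506188 to 51089267 per library. All 8 stromal markers (among them Pdgfra, Prrx1 and Col1a1) had counts in every library. Sham 1 and injured 1 stood apart by their blood cell markers, and sham 1 also by endothelial and Schwann markers. The 8 erythroid markers found summed to 38769 and 6077 CPM in these libraries, respectively, and to between 1.19 and 593 in the rest. The 19 leukocyte markers summed to 8354 CPM (counts scaled to a common library size) in sham 1 and 9012 in injured 1, while sham 2 had 33.9, uninjured 678, injured 2 1626 and injured 3 30.4. The 18 endothelial markers summed to 3823, 38.2 and 1305 CPM in sham 1, sham 2 and uninjured and to 725, 396 and 142 in injured 1, 2 and 3. The 14 Schwann cell markers summed to 5804 CPM in sham 1 and to between 366 and 990.4 in the other libraries. In bulk RNA a change in the number of cells of a type and a change of RNA per cell cannot be told apart.

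In the injured libraries Nid2 and Lamb1 stood higher, and Nid1, Lamb2, Lama2, Lamc1 and Lamc3 lower, than in every sham and uninjured library, while integrins did not separate in this way. Of the 39 members, 38 had a count somewhere, 26 had one in every library, and the laminin chain Lama1 had none in any library. At an adjusted p of 0.05, edgeR's quasi-likelihood test called 0 members and 0 genes overall in either comparison. Against sham control, 5 of 38 tested members had an unadjusted p under 0.05, or 13.2%, where 4.64% of all 16752 genes tested had one. Of the 5, 1 was higher in injured cells (2.44% of all genes were) and 4 were lower (2.20% of all genes). That count was 9 without sham 2 and 3 without injured 2. Against all non-injured libraries it was again 5, of 35 tested (14.3%), where the share over 14110 genes was 7.43%. There too 1 was higher (3.71% of all genes) and 4 were lower (3.72%). The count was 9 without sham 2 and 8 without injured 3. In both comparisons, no share of all genes is given for the fits with a library left out. The injured libraries lay wholly above or below both sham libraries for 8 of 38 members (21.1%), which is near the 21.0% of all genes tested. Of these, 2 lay above (11.9% of all genes) and 6 below (9.12%). They lay wholly above or below all 3 non-injured libraries for 7 of 35 (20.0%), against 16.3% of all genes, with 2 above (9.23%) and 5 below (7.07%). DESeq2 called 3 members against sham control (1 higher, 2 lower; 2.20% of genes overall) and 4 against non-injured (1 higher, 3 lower; 2.49%). All of these were laminins or nidogens.

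Nidogen 2 stood higher and nidogen 1 lower in the injured libraries than in the others. Nidogen 2 (Nid2) measured 39.2, 23.2 and 20.1 CPM in sham 1, sham 2 and uninjured against 187, 61.9 and 318 in injured 1, 2 and 3. Every injured library was above every non-injured one, though injured 2 lay far below the others of its group. Its log2 fold change was 2.60 ± 0.75 (SE) against sham control (edgeR unadjusted p = 0.0106, adjusted p = 0.865) and 2.77 ± 0.63 against non-injured (unadjusted p = 0.00275, adjusted p = 0.452). Against sham control the edgeR unadjusted p was 0.0708 without sham 2, and the log2 fold change was 1.96 without injured 3. DESeq2 gave adjusted p = 0.0350 and 0.00222 in those comparisons, whereas the alternatives run with edgeR and limma did not go below 0.339.

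Nidogen 1 (Nid1), the widely expressed member of the pair, was at 393, 358 and 619 CPM in sham 1, sham 2 and uninjured, and at 159, 228 and 198 in injured 1, 2 and 3. The groups did not overlap. The group mean was 195 ± 34.1 CPM (SD, n = 3) in injured and 376 ± 24.8 (SD, n = 2) in sham control, and the fitted log2 fold change was -0.95 ± 0.36 (SE; edgeR unadjusted p = 0.0358, adjusted p = 0.865). That edgeR unadjusted p was above 0.05 with any 1 library left out (0.103 and 0.0697 without sham 1 and 2, and 0.0879, 0.0798 and 0.0711 without injured 1, 2 and 3). With library size alone as the scaling it was 0.0993. Against non-injured it was -1.23 ± 0.35 (edgeR adjusted p = 0.452, DESeq2 adjusted p = 0.0154).

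A share within a family does not depend on how libraries are scaled to each other. Nid2 made up 9.07%, 6.07% and 3.15% of the summed nidogen CPM in sham 1, sham 2 and uninjured, and 54.0%, 21.4% and 61.6% in injured 1, 2 and 3. The mean was 6.10 ± 2.96% in non-injured and 45.7 ± 21.4% in injured libraries (SD, n = 3 each), and these shares are given as a description with no test. Per kilobase of exon (GENCODE vM21, GRCm38), Nid1 stood at 75.0 ± 23.3 and Nid2 at 5.53 ± 2.06 CPM per kb in non-injured cells (SD, n = 3 each). In injured cells they stood at 32.0 ± 5.60 and 38.0 ± 25.7 CPM per kb (SD, n = 3 each), which do not differ beyond their spread. The gene Rtraf lies on the opposite strand over 437 exon bases of Nid2, 8.78% of its exon length. The sources used here do not say whether reads were counted by strand. Rtraf was at 114, 89.9 and 65.8 CPM in sham 1, sham 2 and uninjured and at 124, 127 and 126 in injured 1, 2 and 3, and its part in the Nid2 counts was not tested.

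**Figure D1:**
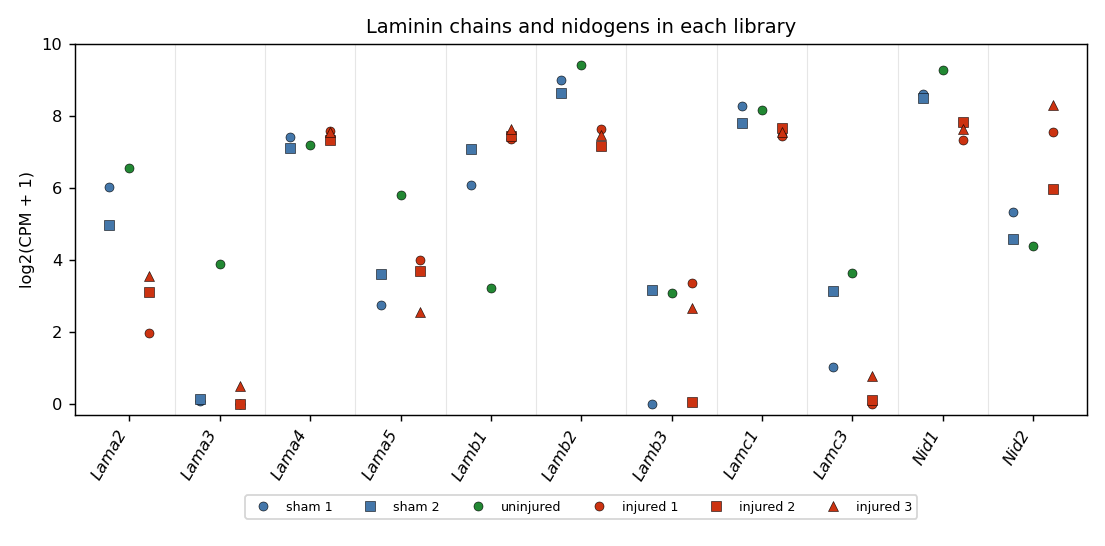
Level of laminin chains and nidogens in each library, on the y axis as log2(CPM + 1), with 1 point per library and no averaging; blue marks sham, green uninjured and red injured. Lama2, Lamb2, Lamc1, Lamc3 and Nid1 of all 3 injured libraries lie below all non-injured points, and those of Lamb1 and Nid2 above them.

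The laminin beta chains also stood in different proportions. Laminin beta 2 (Lamb2), a chain known from neuromuscular, kidney and vessel basement membranes, was at 514, 401 and 686 CPM in sham 1, sham 2 and uninjured, and at 199, 143 and 176 in injured 1, 2 and 3. All injured values were below all others. Its log2 fold change was -1.41 ± 0.37 (SE) against sham control (edgeR unadjusted p = 0.00713, adjusted p = 0.865; DESeq2 adjusted p = 0.00747) and -1.63 ± 0.34 against non-injured (edgeR unadjusted p = 0.00172, adjusted p = 0.425; DESeq2 adjusted p = 0.00024). With sham 1 and injured 1 both left out the values were -1.33 and -1.77, with edgeR unadjusted p of 0.0281 and 0.00719.

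Laminin beta 1 (Lamb1), the chain of many embryonic and adult laminins, was at 66.8, 134 and 8.40 CPM in sham 1, sham 2 and uninjured, and at 165, 173 and 199 in injured 1, 2 and 3. The 3 injured libraries were close together at 179 ± 17.8 CPM (SD, n = 3), and all lay above the non-injured libraries, which were widely spread at 69.8 ± 63.0 (SD, n = 3). The log2 fold change was 0.83 ± 0.43 against sham control and 1.35 ± 0.82 against non-injured (edgeR unadjusted p = 0.0942 and 0.140, SE in each case), and neither edgeR nor DESeq2 called it. Without sham 1 the value against sham control was 0.41, and without sham 2 it was 1.42 (edgeR unadjusted p = 0.0257); against non-injured it was 2.25 without sham 2 (edgeR unadjusted p = 0.0361).

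Lamb1 took 11.5%, 24.7% and 1.20% of the summed laminin beta CPM in sham 1, sham 2 and uninjured, and 44.1%, 54.8% and 52.3% in injured 1, 2 and 3. Injured libraries therefore lay within 44.1% to 54.8%, and no non-injured library exceeded 24.7%. Per kilobase of exon, Lamb2 was at 94.1 ± 25.3 and Lamb1 at 12 ± 10.8 CPM per kb in non-injured cells, against 30.4 ± 4.99 and 30.6 ± 3.05 in injured cells (SD, n = 3 each). The latter pair of levels does not differ beyond the spread. The third chain, Lamb3, part of epithelial laminin, was absent from sham 1 and between 0.0330 and 9.23 CPM elsewhere, with overlapping groups.

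Promoter windows are shown for Lamb1, Lamb2 and Nid1. Their shares of their families differed between the groups, and they were found in the RefSeq promoter table (GRCm38.p6), which held 24 of the 39 members. Lama2, whose share also differed, had an entry there that started elsewhere than its GENCODE vM21 gene start, and its window is not shown. Each window is the 250 bases before the RefSeq start, read 5′ to 3′ on the gene's strand. Capitals mark matches on either strand to the GC box GGGCGG, the TATA box TATAAA, the AP-1 motif TGANTCA or the TEAD motif CATTCC.
Lamb1: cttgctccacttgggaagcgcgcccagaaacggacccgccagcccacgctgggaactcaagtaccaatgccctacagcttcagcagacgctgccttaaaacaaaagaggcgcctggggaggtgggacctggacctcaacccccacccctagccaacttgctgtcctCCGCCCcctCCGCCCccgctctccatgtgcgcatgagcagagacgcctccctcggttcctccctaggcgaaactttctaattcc
Lamb2: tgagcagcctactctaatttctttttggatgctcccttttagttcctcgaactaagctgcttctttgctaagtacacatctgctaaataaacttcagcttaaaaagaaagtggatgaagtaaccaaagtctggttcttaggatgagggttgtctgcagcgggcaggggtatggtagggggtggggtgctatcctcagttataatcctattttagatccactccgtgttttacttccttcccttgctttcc
Nid1: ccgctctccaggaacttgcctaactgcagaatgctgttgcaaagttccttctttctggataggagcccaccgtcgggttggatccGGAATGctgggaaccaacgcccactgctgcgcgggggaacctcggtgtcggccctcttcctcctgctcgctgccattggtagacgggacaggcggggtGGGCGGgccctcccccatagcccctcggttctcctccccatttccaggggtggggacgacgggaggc
The windows lie at chr12:31265043-31265292 (+), chr9:108479612-108479861 (+) and chr13:13437352-13437601 (+). The GENCODE vM21 gene starts, in the same order 31265234, 108479736 and 13437551, lie inside these windows. By that annotation the end of each window is within the gene. Of all 32851 windows of this length, 32.7% hold the GC box, 12.4% the TATA box, 6.7% the AP-1 motif and 12.6% the TEAD motif. Lamb1 has 2 GC boxes and 14 CpG pairs at 62.0% GC, and Nid1 has 1 GC box, 1 TEAD match and 16 CpG pairs at 64.4% GC. Lamb2 has none of the 4 motifs, 3 CpG pairs and 43.6% GC, beside medians of 6 CpG pairs and 52.4% GC over all windows. A match is a description of letters and not evidence of binding.

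Among the laminin alpha chains, laminin alpha 2 (Lama2), the chain of the muscle and Schwann cell basement membrane and the gene mutated in a congenital muscular dystrophy, had the smallest p-values. It was at 64.8, 30.5 and 93.9 CPM in sham 1, sham 2 and uninjured, and at 2.94, 7.60 and 10.9 in injured 1, 2 and 3. The lowest non-injured library was still above the highest injured one. Group means were 63.1 ± 31.7 CPM in non-injured and 7.13 ± 3.98 in injured cells (SD, n = 3 each), an 8.84-fold ratio. The log2 fold change was -2.74 ± 0.67 (SE) against sham control (edgeR unadjusted p = 0.00473, adjusted p = 0.865; DESeq2 adjusted p = 0.0110) and -3.15 ± 0.66 against non-injured (edgeR unadjusted p = 0.00178, adjusted p = 0.425; DESeq2 adjusted p = 0.00037). Without sham 1 the value against sham control was -2.10, and with sham 1 and injured 1 both left out it was -1.73 (edgeR unadjusted p = 0.00790).

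Schwann cell markers were also lower in the injured libraries, at summed levels of 646, 366 and 418 CPM in injured 1, 2 and 3 against 5804, 943 and 990.4 in sham 1, sham 2 and uninjured. Of the 14 markers, 10 to 14 had a count in each library. The uninjured library had the highest Lama2 level and the second highest Schwann sum, with 10 of the 14 markers counted. Endothelial markers summed to 38.2 CPM in sham 2, below every injured library, and Lama2, Lamb2, Lamc1 and Nid1 in sham 2 were above every injured library. The part of either cell type in these results was not tested.

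Laminin alpha 4 (Lama4), a chain of vessel and mesenchymal laminins, was at 170, 136 and 146 CPM in sham 1, sham 2 and uninjured and at 189, 159 and 189 in injured 1, 2 and 3. The ranges overlapped, and the log2 fold change was 0.23 ± 0.35 against sham control (SE; edgeR unadjusted p = 0.537). Lama4 took 70.7%, 76.5% and 47.3% of the summed laminin alpha CPM in sham 1, sham 2 and uninjured, and 91.4%, 89.0% and 92.1% in injured 1, 2 and 3. The share of Lama2 was 26.9%, 17.1% and 30.4% in the non-injured libraries and 1.42%, 4.24% and 5.29% in the injured ones, in the same orders. Laminin alpha 5 (Lama5), typical of mature epithelial and endothelial membranes, was at 55.4 CPM in the uninjured library and between 4.90 and 15 in the rest. Lama3, of epithelial laminin, reached 13.8 CPM in the uninjured library and at most 0.428 elsewhere.

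Laminin gamma 1 (Lamc1), the common gamma chain, was at 311, 223 and 288 CPM in sham 1, sham 2 and uninjured and at 173, 201 and 187 in injured 1, 2 and 3. The groups did not overlap, but the gap between sham 2 and injured 2 was small beside the spread of the sham libraries (62.1 CPM, SD, n = 2). Its log2 fold change was -0.51 ± 0.36 against sham control and -0.56 ± 0.28 against non-injured (SE; edgeR unadjusted p = 0.192 and 0.0884), and no tool called it. Lamc3, a rarer gamma chain, was at 1.05, 7.76 and 11.5 CPM in the non-injured libraries and at 0, 0.0826 and 0.728 in injured 1, 2 and 3. At these low counts the log2 fold change of -4.64 ± 2.07 against non-injured (SE; edgeR unadjusted p = 0.0579) has a wide error.

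**Figure D2:**
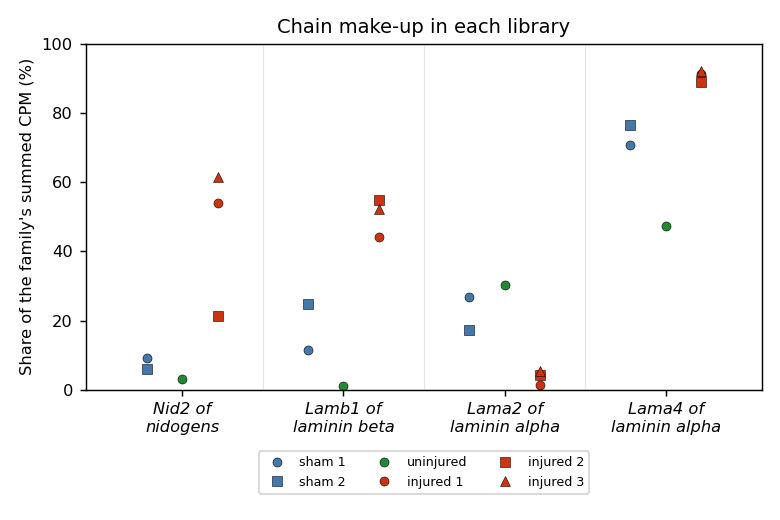
Share of Nid2 in the nidogens, of Lamb1 in the laminin beta chains and of Lama2 and Lama4 in the laminin alpha chains, as percent of the family's summed CPM on the y axis, with 1 point per library. Nid2, Lamb1 and Lama4 shares of the 3 injured libraries (red) lie above those of sham (blue) and uninjured (green) libraries, and Lama2 shares lie below.

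By level, integrins showed no such separation. For 1 of the 26, Itga7, the injured libraries lay wholly outside the sham libraries, as they did for 21.0% of all genes tested. For none did they lie outside all 3 non-injured ones, beside 16.3% of all genes. By share of a family's summed CPM, Itga6 and Itga11 did separate. Itga6 took 40.9%, 40.4% and 37.3% of the laminin-binding alpha subunits in sham 1, sham 2 and uninjured, and 42.1%, 86.7% and 74.2% in injured 1, 2 and 3. Itga11 took 69.3%, 64.3% and 64.5% of the collagen-binding ones, and 94.9%, 73.7% and 70.4%, in the same orders. Shares of the other integrins in the families compared overlapped. Integrins were set apart from laminins and nidogens with these values known, and the difference between the classes was not tested. Among the laminin receptors, integrin alpha 7 (Itga7), the muscle laminin receptor, was at 61.1, 10.6 and 9.93 CPM in sham 1, sham 2 and uninjured and at 9.91, 5.60 and 10 in injured 1, 2 and 3. Sham 1 alone stood high. The log2 fold change against sham control was -2.07 ± 0.84 (SE; edgeR unadjusted p = 0.0429, adjusted p = 0.865) and -0.32 without sham 1 (edgeR unadjusted p = 0.756). Without injured 1, 2 or 3 the edgeR unadjusted p was 0.0708, 0.118 and 0.0771.

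Integrin alpha 3 (Itga3), a receptor for laminins of epithelia, was at 112, 11.9 and 22.5 CPM in sham 1, sham 2 and uninjured and at 15, 0.512 and 2.61 in injured 1, 2 and 3. Injured 1 overlapped the sham libraries, and the log2 fold change against non-injured was -3.02 ± 1.34 (SE; edgeR unadjusted p = 0.0575). Without sham 1 it was -1.51 (edgeR unadjusted p = 0.285), without sham 2 -3.48 (0.0422) and without injured 1 -4.97 (0.0120). Against sham control it was -3.36, and -0.98 without sham 1. Integrin alpha 6 (Itga6), which pairs with beta 1 or beta 4, was at 120, 15.2 and 19.3 CPM in sham 1, sham 2 and uninjured and at 18.1, 40.0 and 36.5 in injured 1, 2 and 3. Its direction turned on 1 library: the log2 fold change against sham control was -1.10 with all libraries, 1.05 without sham 1 and -1.92 without sham 2 (edgeR unadjusted p = 0.0160 for the last). Integrin beta 4 (Itgb4), the alpha 6 partner of hemidesmosomes and Schwann cells, was at 110, 2.18 and 38.2 CPM in the non-injured and at 12.6, 1.62 and 11.2 CPM in the injured libraries. All 4 of these receptor genes had their highest value in sham 1, which also had the highest Schwann (5804 CPM) and endothelial (3823 CPM) marker sums; the part of those cells in the result was not tested.

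Collagen receptors overlapped between groups throughout. Integrin alpha 11 (Itga11), the fibroblast receptor for fibrillar collagen, was at 87.0, 143 and 188 CPM in sham 1, sham 2 and uninjured and at 86.6, 99.4 and 128 in injured 1, 2 and 3. Integrin alpha 10 (Itga10), the collagen receptor of chondrocytes, was at 18.6, 59.8 and 65.0 CPM and at 3.35, 11.4 and 36.7 CPM in the same order. Its log2 fold change against non-injured was -1.48 ± 0.88 (SE; edgeR unadjusted p = 0.135), or -2.72 without injured 3 (edgeR unadjusted p = 0.0190). Chondrocyte markers summed to 6343, 31739 and 8631 CPM in sham 1, sham 2 and uninjured and to 18602, 11175 and 61079 in injured 1, 2 and 3. The part of chondrocytes in the Itga10 levels was not tested. The 2 remaining collagen receptors, Itga1 and Itga2, ranged from 1.31 to 37.1 and from 0.0226 to 4.32 CPM, each lowest in injured 1.

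Among the RGD receptors, Itgav was at 31.1, 72.0 and 51.9 CPM in sham 1, sham 2 and uninjured and at 33.7, 99.3 and 116 in injured 1, 2 and 3. Sham 1 and injured 1, the libraries rich in leukocyte transcripts, were the lowest. The log2 fold change was 0.69 ± 0.65 against sham control and 0.68 ± 0.54 against non-injured (SE; edgeR unadjusted p = 0.324 and 0.244). Against sham control it was 0.21 without sham 1 and 1.42 without sham 2, and against non-injured it was 1.06 without injured 1 (edgeR unadjusted p = 0.0466). Integrin alpha 5 (Itga5), the fibronectin receptor subunit, was at 264, 872 and 351 CPM in sham 1, sham 2 and uninjured and at 749, 358 and 456 in injured 1, 2 and 3. The sham libraries enclosed every other library, and the log2 fold change was -0.13 ± 0.61 (SE). Itga2b, the platelet subunit, was between 8.52 and 25.1 CPM in every library, highest in injured 1. The 10 platelet markers summed to 115, 4.23 and 22.3 CPM in sham 1, sham 2 and uninjured and to 300, 92.1 and 13.4 in injured 1, 2 and 3, also highest in injured 1, and 4 of them had no count in any library. Their part in the Itga2b levels was not tested. Itga8 had no count in sham 2, injured 1 and injured 2 and reached 25.7 CPM in the uninjured library.

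The shared partner integrin beta 1 (Itgb1), which pairs with most alpha subunits, was at 262, 394 and 462 CPM in sham 1, sham 2 and uninjured and at 281, 631 and 780 in injured 1, 2 and 3. Injured 1 lay among the non-injured libraries, and the log2 fold change against sham control was 0.78 ± 0.54 (SE; edgeR unadjusted p = 0.193). Integrin beta 5 (Itgb5), an alpha V partner, was at 233, 355 and 295 CPM in the non-injured and 277, 215 and 251 in the injured libraries; the groups overlapped. Per kilobase of exon, Itga5 (119 ± 46.4), Itgb1 (145 ± 65.8) and Itgb5 (73.0 ± 9.08 CPM per kb; SD, n = 3 each) had the highest mean levels of the integrins in injured cells. Itga5 and Itgb1 do not differ beyond their spread. Itgb3, another alpha V partner, ranged from 2.85 to 26.0 CPM, Itgb8 from 0.438 to 9.11, and Itgb6, an epithelial subunit, was at most 0.462 CPM.

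Of the alpha 4 and alpha 9 pair, integrin alpha 9 (Itga9), a receptor for tenascin C, was at 26.2, 5.61 and 42.5 CPM in sham 1, sham 2 and uninjured and at 3.39, 3.93 and 8.84 in injured 1, 2 and 3. Injured 3 overlapped sham 2. The log2 fold change against non-injured was -2.21 ± 0.86 (SE; edgeR unadjusted p = 0.0362, adjusted p = 0.611) and against sham control -1.56 ± 0.88, or -0.06 without sham 1. The edgeR unadjusted p against non-injured was 0.0641 without sham 1, 0.167 without uninjured, 0.0909 without injured 1 and 0.106 without injured 2. Integrin alpha 4 (Itga4), of lymphoid and myeloid cells, was at 1.16, 0.0276 and 0 CPM and at 7.83, 1.75 and 0.30 in the same order, highest in injured 1.

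**Figure D3:**
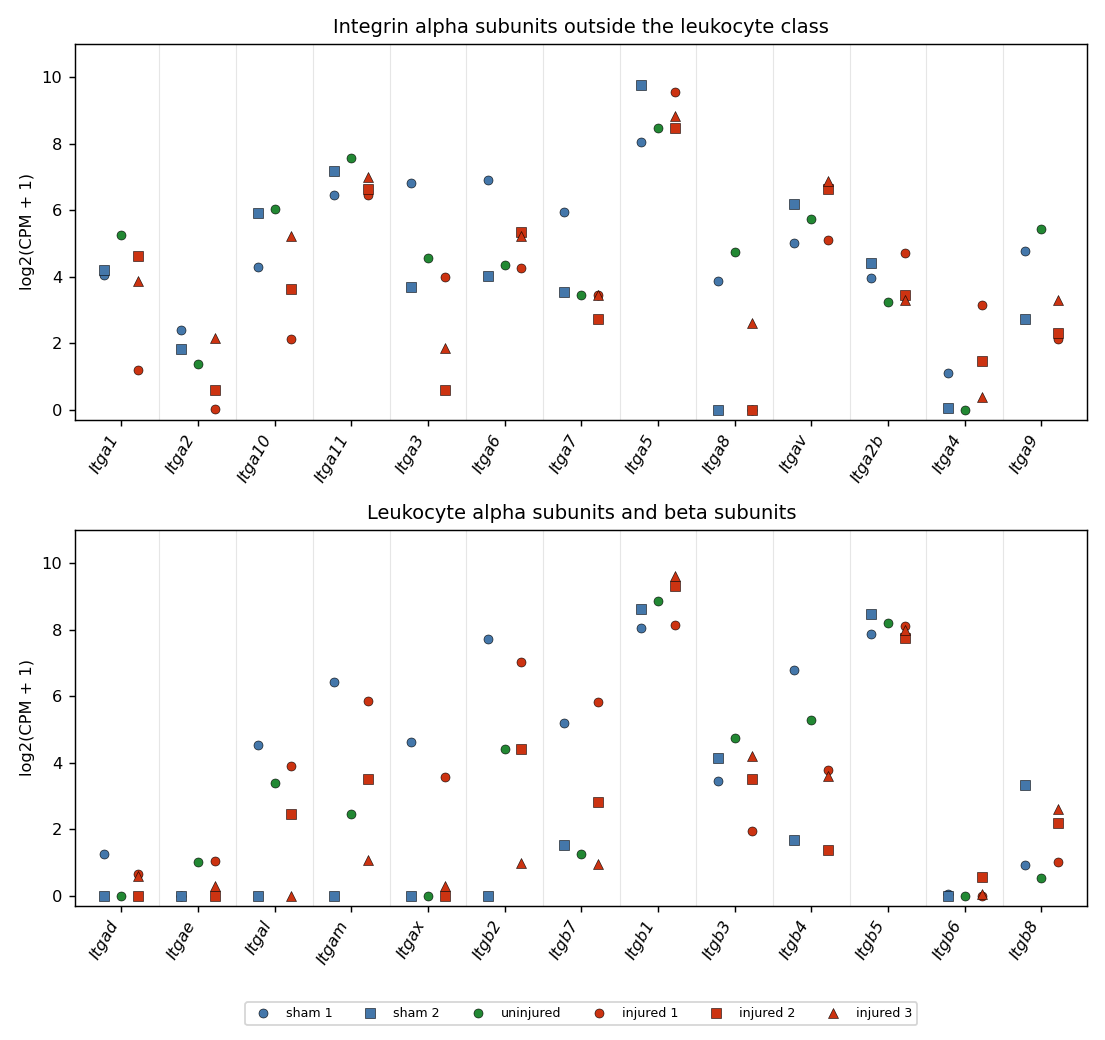
Level of each integrin subunit in each library as log2(CPM + 1) on the y axis, with alpha subunits outside the leukocyte class in the upper panel and leukocyte alpha and all beta subunits in the lower one. Except for Itga7, the red injured points overlap the range of the blue sham points, and for Itgb2, Itgam and Itgal sham 1 and injured 1 are the highest.

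The leukocyte integrins were high in sham 1 and injured 1, the libraries with the highest leukocyte marker sums (8354 and 9012 CPM), and the part of those cells in the result was not tested. The common leukocyte beta subunit Itgb2 was at 208, 0 and 20.4 CPM in sham 1, sham 2 and uninjured and at 131, 20.4 and 0.985 in injured 1, 2 and 3. Its partners were highest in sham 1 and injured 1 as well: Itgam, of neutrophils and macrophages, was at 84.3, 0 and 4.50 CPM in sham 1, sham 2 and uninjured and at 57.3, 10.5 and 1.09 in injured 1, 2 and 3. Itgal, of lymphocytes and other leukocytes, was at 22.2, 0 and 9.45 CPM and at 13.8, 4.51 and 0 CPM in the same order. Itgax, a dendritic cell and macrophage subunit, measured 23.7 CPM (sham 1) and 10.9 CPM (injured 1), and did not exceed 0.214 in other libraries. Sham 2 had no count of any of the 5 leukocyte alpha subunits or of Itgb2, which allows at most 3 counts, or 0.0828 CPM, counting error only. Ptprc, the pan-leukocyte gene, was also without a count in sham 2, but 12 of the 19 leukocyte markers had one there. Their sum was 33.9 CPM in sham 2 and 30.4 in injured 3. Itgb7, the partner of Itga4 and Itgae, was at 35.2 CPM in sham 1, 56.0 in injured 1 and at most 5.99 in the others. Itgad and Itgae stayed at or below 1.38 and 1.04 CPM. Itgad, Itgam and Itgax are neighbouring genes of similar sequence, so reads may have been split among them.

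**Figure D4:**
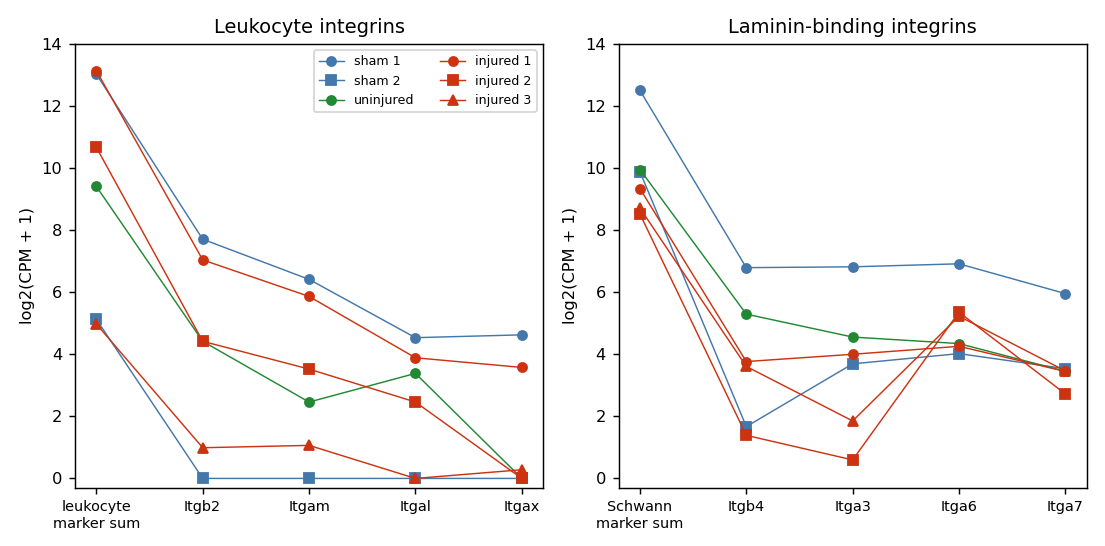
Left, the leukocyte integrins beside the summed leukocyte markers, and right, laminin-binding integrins beside the summed Schwann markers, as log2(CPM + 1) on the y axis; each line joins the values of 1 library. Sham 1 and injured 1 are the upper lines for Itgb2, Itgam, Itgal and Itgax, and sham 1 is the upper line for Itgb4, Itga3, Itga6 and Itga7.

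The other matrix partners of the basement membrane were read from a list of 25 genes. Against sham control 5 of 24 tested had a fold above 0 and 19 below (20.8% above, against 53.7% of all genes), with a median log2 fold change of -0.91 beside 0.09 for all genes tested. By edgeR 0 passed the adjustment and 4 had an unadjusted p under 0.05, all lower (16.7%, against 4.64% of all genes and 2.20% lower), while DESeq2 called 2, both lower (2.20% of all genes). Against non-injured DESeq2 called 4 of these partners, all lower (2.49% of all genes). Netrin 4 (Ntn4), which binds laminin gamma chains, stood at 21.7 ± 9.36 CPM in injured and 92.4 ± 12.1 in non-injured cells (SD, n = 3 each; edgeR unadjusted p = 0.00152). Collagen XV (Col15a1), of the zone under the basement membrane, stood at 29.7 ± 6.51 and 90.4 ± 26.7 CPM and fibulin 1 (Fbln1) at 59.6 ± 29.3 and 205 ± 101 CPM (SD, n = 3 each). In each of these 3 genes the injured libraries all lay below the non-injured ones. So they did in 5 of 20 partners tested (7.07% of all genes), and in 1 they all lay above (9.23% of all genes). The genes were named for their small p-values, which favours such a gap. Bcam, a laminin alpha 5 receptor, was at 298, 8.78 and 183 CPM in sham 1, sham 2 and uninjured and at 32.8, 5.09 and 9.16 in injured 1, 2 and 3, with overlap at sham 2.

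Of 23 integrin ligands other than laminin, 13 had a fold above 0 and 10 below against sham control (56.5% above, against 53.7% of all genes). Tenascin C (Tnc), a ligand of alpha 9 and alpha V integrins made in healing tissue, stood at 781 ± 262 CPM in injured and 221 ± 149 in non-injured cells, and fibrillin 1 (Fbn1) at 617 ± 120 and 316 ± 11.8 (SD, n = 3 each; edgeR unadjusted p = 0.0124 and 0.0148). Tenascin N (Tnn) stood at 1293 ± 822 and 188 ± 209 CPM. The Itgb2 ligand Icam1 stood at 54.2 ± 21.4 and 250.5 ± 181 CPM (SD, n = 3 each), and it was the single ligand DESeq2 called against sham control (2.20% of all genes). Against non-injured DESeq2 called 2 ligands higher, Tnc and Tnn (DESeq2 adjusted p = 0.0413 and 0.0335). It called 1 lower, Icam1 (DESeq2 adjusted p = 0.0146), where 2.49% of all genes were called. By edgeR 0 passed the adjustment, and 3 had an unadjusted p under 0.05 against sham control (13.0%, against 4.64% of all genes), 2 of them higher.

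The cytoplasmic adhesion complex, which ties integrins to actin, was near balance: 17 of 36 genes had a fold above 0 and 19 below against sham control, with a median log2 fold change of -0.01. Neither edgeR nor DESeq2 called any of them, and 1 had an unadjusted p under 0.05 by edgeR (2.78%, against 4.64% of all genes). That gene, Parvg, a parvin of blood cells, was at 56.6 CPM in sham 1, 5.38 in uninjured and at most 0.113 elsewhere. Actn1, an actin crosslinker, stood at 69.6 ± 14.6 CPM in injured and 30.0 ± 12.4 in non-injured cells (SD, n = 3 each; edgeR unadjusted p = 0.0214), and Tns1, a tensin, at 101 ± 13.3 and 267 ± 180. The uninjured library raised the latter mean: Tns1 was at 155, 171 and 474 CPM in sham 1, sham 2 and uninjured. Injured 1, 2 and 3 had 116, 99.3 and 89.4 CPM of Tns1 (edgeR unadjusted p = 0.0863 against sham control). Lims2, a partner of integrin-linked kinase, stood at 30.4 ± 15.6 and 76.1 ± 36.4 CPM (SD, n = 3 each).

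Over all 38 tested members, 12 (31.6%) had a fold above 0 and 26 below against sham control, where 53.7% of all genes were above 0, with a median log2 fold change of -0.58 beside 0.09 for all genes tested. The median was -0.07 without sham 1 (0.26 for all genes tested), -0.20 without sham 2 (0.3) and -0.74 without injured 1 (0.04). With sham 1 and injured 1 both left out it was 0.10 (0.2 for all genes tested). The size of the members' median thus depends on the sham libraries, but the median of all genes moved as well. Against non-injured libraries 10 of 35 were above 0 (28.6%, against 50.1% of all genes). The median was -0.59 beside 0.00, or -0.59 beside 0.04 without sham 1 and injured 1. With library size alone as the scaling, which moved the median of all genes to 0.23 against sham control, the members' median was -0.39.

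**Figure D5:**
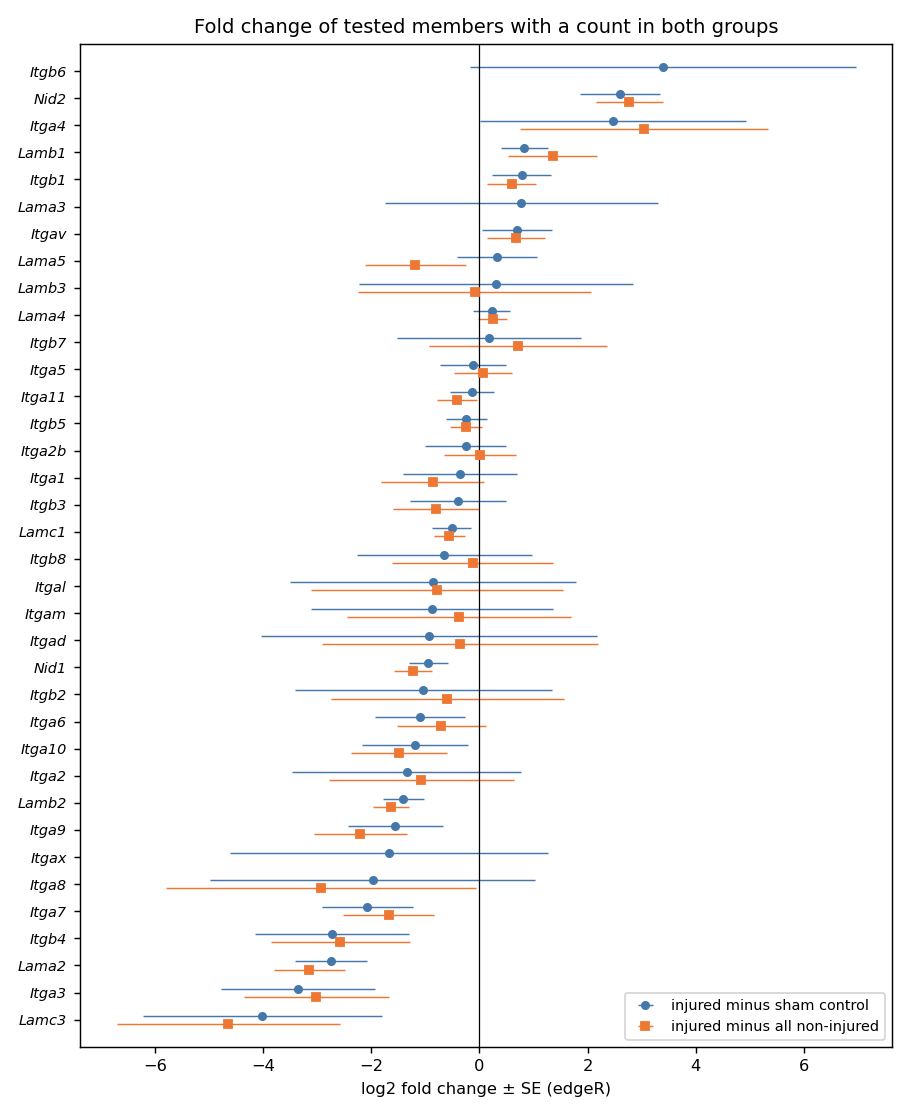
Log2 fold change of tested members with a count in both groups, on the x axis with SE bars from edgeR, for injured against sham control (blue circles, 2 sham and 3 injured libraries) and against all non-injured libraries (orange squares, 3 against 3). Nid2 lies to the right of 0 and Lama2, Lamb2 and Nid1 to the left with bars clear of 0, while bars of Itgb2, Itgam and Itgal are wide and cross it. SE bars also clear 0 in both comparisons for other members, among them Lamb1, Lamc1, Lamc3, Itga3, Itga7, Itga9, Itgb1 and Itgb4.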

How the data were processed

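RNA-seq of sorted skeletal stem cells was analysed from 1 deposited table of whole-number counts per gene symbol, with 6 columns, all used. Per the labels' protocols, cDNA was amplified from 150 pg of total RNA, so low counts can drop out. The submitters' processing notes name Salmon 0.12.0 and DESeq2 1.22.2, besides DESeq, and the builds GRCm38.p6 and mm9 without a role; how transcripts became gene counts is not stated there. Genes were kept by filterByExpr (minimum count 10), scaled by TMM and tested with edgeR 4.0.16 (R 4.3.3), Benjamini-Hochberg adjusted over all genes at 0.05. The first comparison fitted 3 groups (3 residual degrees of freedom), the second 2 groups (4). SE came from the F statistic. DESeq2 1.42.0 and limma 3.58.1 were alternatives, with other scalings, no filter, and libraries left out. The code was tested on simulated data. Shares and per-kilobase levels use CPM and exon lengths from GENCODE vM21. Members and lists were chosen with earlier results of these data known. Values in every library are given for Itgav, members with an unadjusted p under 0.05, without overlap or called by DESeq2, and the 2 with the largest mean of each role; of each partner list, the 4 genes with the smallest p. Any other gene named with values was chosen after they were seen. The values of 1 member are not reported here.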

Additional observations from a re-analysis of the deposited data

How the results depend on the processing

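Of 546 values for the 21 members given in every library, under each alternative, 510 kept their direction and side of the threshold, 7 newly passed by DESeq2, and 29, in 7 genes, changed sign. By edgeR and limma no alternative called a member after adjustment. DESeq2 called 3 members against sham control (2.20% of all genes) and 4 against non-injured (2.49%). It gave 8 and 10 members an unadjusted p under 0.05, where edgeR gave 5 and 5. Leaving out 1 library moved that count, 5 in each comparison, to between 3 and 9 against sham control and between 4 and 9 against non-injured. With sham 1 and injured 1 both left out it was 8 against sham control. The titles link sham and injured libraries of equal replicate number by that number alone. In the description labels and column headers no sham library shares a number with an injured one. Correlations of their deviations from the group means were 0.353 and 0.011 for numbers 1 and 2. With 2 sham libraries the sham deviations mirror each other (crossed correlations -0.011 and -0.353), so these values cannot decide whether the libraries were paired. In the 4 sham and injured libraries numbered 1 and 2, the replicate block gave an edgeR count of 6 and the fit with no block 3, each with 0 after adjustment. For these alternatives the share of all genes with an unadjusted p under 0.05 is not given here. Whether the members or all genes moved can therefore not be told from the counts.

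Sign changes of the log2 fold change against sham control were as follows. Library size alone gave Itga11 0.026. limma-voom gave Itga5 0.045, Itgam 2.963 and Itgal 0.709. The replicate block gave Itga5 0.085, Itgam 3.213 and Itgal 3.356. Without sham 1 and injured 1 the values were Itga9 0.187, Itga6 1.325, Itgam 11.065 and Itgal 9.704. Leaving out 1 library gave ranges of -0.452 to 0.268 (Itga11), -1.924 to 1.048 (Itga6), -0.745 to 0.980 (Itga5), -2.860 to 13.036 (Itgam), -2.297 to 11.126 (Itgal) and -0.518 to 0.089 (Itgb5). Against non-injured, limma-voom gave Itgam 2.240, and without sham 1 and injured 1 the values were Itga6 1.144, Itga5 -0.589 and Itgam 1.364. There, leaving out 1 library gave -1.141 to 0.866 (Itga6), -0.288 to 0.757 (Itga5), -2.349 to 3.344 (Itgam) and -2.222 to 0.368 (Itgal). Itgam and Itgal had no count in sham 2, so their fits against sham control without sham 1 rest on a group at 0 and give no size. The cause of the other changes was not tested.

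Lama2, Lamb2, Nid1 and Nid2 kept their direction under every alternative run. So did the other members given in every library, except the 7 genes with a sign change. For Lama2, Lamb2, Nid1 and Nid2 the injured libraries lay wholly above or below all others, so leaving libraries out was not a test of direction. Against sham control their log2 fold changes ranged from -3.253 to -1.727, -1.572 to -1.217, -1.073 to -0.752 and 1.814 to 3.033, in the same order. With 2 or 3 libraries a group and low RNA input without molecular identifiers named in the labels, a gene at a few CPM can be at 0 in one library.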
